A study of Homo sapiens with 4 samples.

Results

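The genes described here are 10 of the 26726 genes listed for HN12 cells, an established line of head and neck squamous cell carcinoma. They are the growth hormone receptor GHR, the shared receptor chain gp130 (gene IL6ST) with the chains IL6R, OSMR and LIFR that pair with it, the kinases JAK1 and JAK2, the transcription factors STAT3 and STAT5B, and the inhibitor SOCS3. The set was chosen by the low read counts of GHR in ATAD3A knockout cells against parental cells, so GHR is described without a test, and the other 9 members were taken as its pathway. Parental cells (WT) were compared with cells whose ATAD3A gene, which encodes an ATPase of the mitochondrial membrane, had been cut with CRISPR/Cas9 (KO). Duplicate cultures of each genotype gave 2 KO and 2 WT libraries, with no drug or ligand named for any of them. The knockout lines were grown out of single cells, and the methods do not name the clone or clones behind the KO libraries, so a difference between the genotypes and a difference between clones cannot be told apart.

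Growth hormone and the cytokines of the interleukin-6 family have receptors with no enzyme activity of their own. Their cytoplasmic tails hold Janus kinases, which phosphorylate STAT proteins when the ligand draws the chains together, and the STAT dimers then enter the nucleus. GHR works mainly through JAK2 and STAT5, while gp130 pairs with IL6R for interleukin-6, with LIFR for leukemia inhibitory factor and with OSMR for oncostatin M, and signals mainly through JAK1 and STAT3. SOCS3 is switched on by STAT3 and blocks gp130 and its kinase, which closes a feedback loop. The data are levels of messenger RNA, and neither protein nor phosphorylation is part of them.

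STAT dimers bind a palindrome whose general form is TTCNNNGAA, and the stretches upstream of the GHR start sites were read for it because GHR was the member with the largest difference. Promoter sequences came from RefSeq on GRCh38.p14, and the 250 bases before each listed start were searched. The motif reads the same on both strands, and the narrower form TTCCNGGAA is part of it. It stood in 6.56% of 34943 such stretches over all genes, and TTCCNGGAA stood in 0.967%. Among the members, 1 of 7 GHR stretches and 2 of 3 LIFR stretches held it, and the stretches of IL6ST, IL6R, OSMR, JAK1, JAK2, STAT3, STAT5B and SOCS3 did not. The first 3 lines below are those stretches, and the fourth is from CISH, a well known STAT5 target, where the motif occurred 4 times. Capitals mark the motif.
GHR, chr5:42549917-42549975, plus strand: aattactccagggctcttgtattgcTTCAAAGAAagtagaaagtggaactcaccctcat
LIFR, chr5:38595537-38595595, minus strand: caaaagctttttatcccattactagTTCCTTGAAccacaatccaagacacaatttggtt
LIFR, chr5:38557616-38557674, minus strand: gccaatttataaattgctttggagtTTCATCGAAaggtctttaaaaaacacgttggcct
CISH, chr3:50611853-50612024, minus strand: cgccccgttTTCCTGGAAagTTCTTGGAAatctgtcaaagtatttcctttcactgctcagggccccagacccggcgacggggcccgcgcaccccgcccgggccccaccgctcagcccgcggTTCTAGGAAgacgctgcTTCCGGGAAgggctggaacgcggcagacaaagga
A match of letters is not evidence of binding, and the read counts are sums over each gene that do not separate its start sites.

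Counts on genes totalled 16805766 and 18943547 in the KO libraries and 13569971 and 15173766 in the WT libraries. A count of 0 in a library leaves room for 3 counts, or 0.163 to 0.216 CPM (counts scaled to the library total), and this limit covers counting error only. ATAD3A itself had 702 and 492 counts in KO replicates 1 and 2 and 1802 and 1471 in WT, a log2 fold change of -1.70 (SE 0.0907, n = 2 per group, edgeR's quasi-likelihood F-test, Benjamini-Hochberg adjusted p = 1.58e-17). Of the 50-base words in the ATAD3A transcript, 36.4% also occur in other genes, mostly in its paralog ATAD3B. Of 15104 genes tested across the genome, 3074 were called higher in KO (20.4%) and 2891 lower (19.1%). With scaling by library totals only, the split was 2510 higher and 3613 lower. All 9 squamous epithelial markers were called, with KRT5, KRT14, KRT17, KRT6A and SFN higher and TP63, DSG3, CDH1 and EPCAM lower, and their summed level was 4758 and 4733 CPM in KO against 2028 and 2037 CPM in WT. Markers of leukocytes summed to 2.87 to 4.76 CPM per library and those of fibroblasts to 12.0 to 16.7 CPM. Endothelial markers summed to 1.52 to 2.39 CPM. Only 2 of 5 listed leukocyte markers, 2 of 4 fibroblast markers and 1 of 3 endothelial markers had enough counts for a test. None of the tested markers was called. CD3E, DCN, LUM and PECAM1 were not listed. The part that the shift in squamous markers has in the results below was not tested.

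GHR (ENSG00000112964), the receptor for growth hormone, spans positions 42423777 to 42721878 of chromosome 5 (GRCh38, plus strand). It had 27 and 40 counts in the KO libraries and 172 and 139 in the WT libraries. These correspond to 1.46 and 2.44 CPM in KO and 11.1 and 9.99 CPM in WT, so both KO libraries were far below both WT libraries, while KO replicate 2 stood above KO replicate 1. The mean fell from 10.5 ± 0.787 CPM (SD, n = 2) in WT to 1.95 ± 0.689 CPM (SD, n = 2) in KO, and the fitted log2 fold change was -2.44 (SE 0.26), a 5.44-fold lower level. The 4 pairings of a KO with a WT library gave log2 differences between -2.92 and -2.03. By size of decrease GHR held place 57 among the 15104 genes tested. On the log2(RPKM + 1) scale, where RPKM is counts per kilobase of gene, scaled to the library total, the difference shrank to -1.25, since a pseudocount of 1 is large beside a level of 0.417 RPKM. In a bulk library, fewer cells with a transcript and less transcript per cell cannot be told apart.

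Of the 9 other members, 5 were called higher in KO, 1 was called lower and 3 were not called. That is 66.7% of them, beside 39.5% of all genes tested and 51.4% of the 9434 genes that averaged over 10 CPM, as these 9 did. The GC and length correction gave 6 higher, with IL6ST no longer called, and library totals only gave 4 higher and 2 lower. Their median log2 fold change in the reported test was 0.25, and the median over all genes was -0.0042. In 7 of the 9 the KO and WT libraries did not overlap, 5 with KO above and 2 with KO below, where 68.1% of all genes did not overlap, 34.1% with KO above and 34% with KO below. The plot of levels in each library shows how small most of these differences are beside that of GHR.

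**Figure D1:**
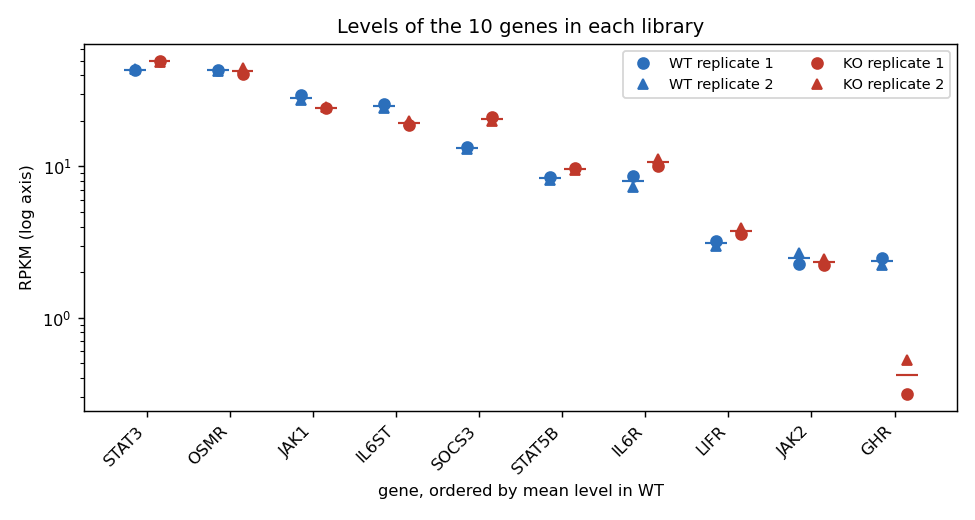
Level of each of the 10 genes in each library, in RPKM on a log axis, ordered by the WT mean. Circles and triangles are replicates 1 and 2, blue is WT, red is KO, and the short lines are group means. The KO points of GHR, at 0.313 and 0.522 RPKM, lie below every other point, and the remaining genes keep nearly the same order in both groups.

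Levels per kilobase put the members in an order that spanned over an order of magnitude. In WT cells STAT3 at 43.5 ± 0.41 RPKM and OSMR at 43.3 ± 0.441 RPKM (SD, n = 2) came first, and their libraries overlapped. JAK1 at 28.5 RPKM, IL6ST at 24.97 RPKM and SOCS3 at 13.2 RPKM followed, each apart from its neighbours. STAT5B at 8.33 RPKM and IL6R at 8.01 RPKM overlapped, as did JAK2 at 2.48 RPKM and GHR at 2.37 RPKM at the lower end, with LIFR at 3.11 RPKM between these pairs. In KO cells SOCS3 at 20.5 RPKM overlapped IL6ST at 19.4 RPKM, IL6R at 10.7 RPKM stood above STAT5B at 9.59 RPKM, and GHR came last. The 2 library values per group are the whole basis of these statements on overlap.

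IL6ST (ENSG00000134352, chromosome 5, 55935095 to 55994993, minus strand) encodes gp130, the chain that most receptors of the interleukin-6 family share. Its level was 175 and 186 CPM in KO and 229 and 214 CPM in WT. Both KO libraries were lower, and the log2 fold change was -0.29 (SE 0.060, edgeR quasi-likelihood, Benjamini-Hochberg adjusted p = 0.00013). The sign of this value depended on the processing. Correcting the counts for the GC content and length of genes moved the value to 0.03, above 0, and over the 15 alternatives the adjusted p ran from 4.14e-07 to 0.664. The IL6ST transcript is long (9057 nt) and poor in GC (36.6%). The medians were 5194 nt and 45.7% GC for the members against 3138 nt and 48.2% for all genes tested. Of its 50-base words 10.3% occur in other genes, among them an antisense transcript and the pseudogene IL6STP1.

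IL6R (ENSG00000160712, chromosome 1, 154405193 to 154469450, plus strand) encodes the chain that binds interleukin-6 before gp130 joins. It stood at 61.2 and 68.2 CPM in KO and at 50.4 and 42.3 CPM in WT. Each KO library exceeded each WT library, and IL6R was called higher with a log2 fold change of 0.48 (SE 0.092, edgeR quasi-likelihood, Benjamini-Hochberg adjusted p = 6.29e-05). The call held in all 15 alternatives, with values from 0.36 to 0.62.

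LIFR (ENSG00000113594, chromosome 5, 38474963 to 38608354, minus strand) encodes the chain for leukemia inhibitory factor. Its level was 36.9 and 40.8 CPM in KO against 31.8 and 29.5 CPM in WT, with no overlap. The log2 fold change was 0.34 (SE 0.10, edgeR quasi-likelihood, Benjamini-Hochberg adjusted p = 0.00897). The call was lost in 4 of 15 alternatives, on RPKM with either pseudocount (0.21 and 0.26), without WT replicate 2 (0.29) and without KO replicate 2 (0.26), whereas the GC and length correction raised the value to 0.69. Adjusted p ran from 1.10e-06 to 0.252. The antisense gene LIFR-AS1, whose exons overlap those of LIFR by 629 nt, had 3 to 5 counts per library.

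OSMR (ENSG00000145623, chromosome 5, 38845858 to 38945596, plus strand) encodes the oncostatin M chain and was the most abundant receptor chain of the set per kilobase. The 4 libraries were at 233 and 255 CPM in KO and 237 and 232 CPM in WT, and the groups overlapped. The log2 fold change was 0.06 with a 95% interval from -0.06 to 0.18 (edgeR quasi-likelihood, Benjamini-Hochberg adjusted p = 0.463), so a difference beyond that interval was not seen and a small one could not be told from 0. Its sign turned in 4 alternatives, and with the GC and length correction it was called higher at 0.16 (adjusted p = 0.00946, in a range up to 0.925). OSMR exons overlap those of RICTOR on the other strand by 229 nt, and RICTOR was lower by a log2 fold change of -0.54.

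The chains can also be set against gp130 inside each library, which removes the scaling between libraries but not differences in GC or length. These ratios were chosen after the values were seen and are a description. The ratio of IL6R to IL6ST counts was 0.351 and 0.366 in KO against 0.220 and 0.198 in WT. LIFR to IL6ST gave 0.211 and 0.219 against 0.139 and 0.138, and OSMR to IL6ST gave 1.33 and 1.37 against 1.03 and 1.09. All 3 ratios were higher in both KO libraries, but they share IL6ST as denominator and are not separate observations. The ratio of JAK1 to JAK2 overlapped, at 10.4 and 9.67 in KO against 12.5 and 9.69 in WT. STAT5B to STAT5A also overlapped, at 4.16 and 4.22 against 4.42 and 3.62. With 2 libraries against 2, no exact test could go below p = 0.333.

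**Figure D2:**
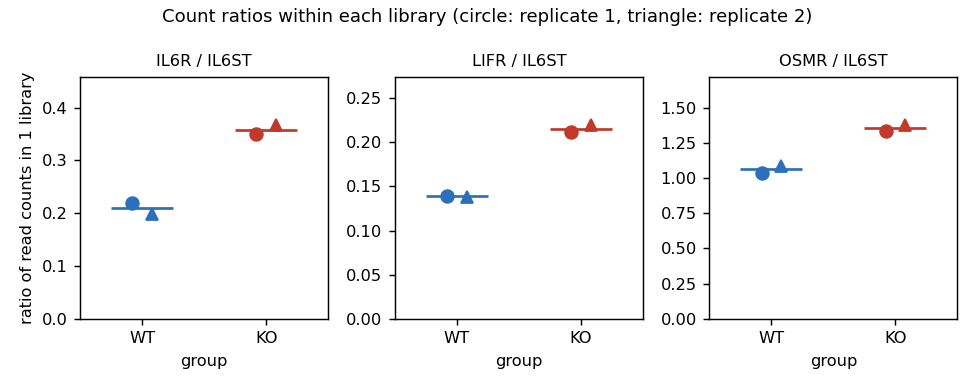
Ratio of read counts of a pair of genes within each library for IL6R, LIFR and OSMR over IL6ST. Blue is WT, red is KO, circles and triangles are replicates 1 and 2, lines are group means and every axis starts at 0. The KO points lie above the WT points in each panel, with averages of 0.358 against 0.209 for IL6R over IL6ST.

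Neither kinase was called. JAK1 (ENSG00000162434, chromosome 1, 64833229 to 64966504, minus strand), which serves gp130 and the interferon receptors, had 126 and 128 CPM in KO and 147 and 134 CPM in WT. KO lay below WT without overlap, yet the log2 fold change of -0.15 (95% interval -0.28 to -0.02) did not pass (edgeR quasi-likelihood, Benjamini-Hochberg adjusted p = 0.0678). It was called lower in 3 of 15 alternatives, at -0.22 with library totals and at -0.21 on RPKM with either pseudocount. Adjusted p in the alternatives ran from 0.00645 to 0.597. JAK2 (ENSG00000096968, chromosome 9, 4984390 to 5128183, plus strand), the kinase of GHR, had 12.2 and 13.2 CPM in KO and 11.8 and 13.9 CPM in WT, which overlapped. Its log2 fold change was -0.01 with a 95% interval from -0.34 to 0.31 (edgeR quasi-likelihood, Benjamini-Hochberg adjusted p = 0.962). The interval is wide, and JAK2 had only 182 to 224 counts per library.

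Both STAT members were modestly higher. STAT3 (ENSG00000168610, chromosome 17, 42313324 to 42388568, minus strand), the main factor below gp130, was at 259 and 253 CPM in KO and 214 and 216 CPM in WT. Replicates differed by little and the groups did not overlap, with a log2 fold change of 0.25 (SE 0.056, edgeR quasi-likelihood, Benjamini-Hochberg adjusted p = 0.000383). It kept its call in 14 of 15 alternatives. The exception was the upper fold limit of the study's methods, which its fold of 1.19 did not reach.

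STAT5B (ENSG00000173757, chromosome 17, 42199168 to 42276707, minus strand), a factor below GHR, was at 50.8 and 49.6 CPM in KO and 42.5 and 40.6 CPM in WT. No library crossed to the other group, and the log2 fold change was 0.27 (SE 0.092, edgeR quasi-likelihood, Benjamini-Hochberg adjusted p = 0.0163). The call was lost in 7 of 15 alternatives, among them without WT replicate 2 (0.24) and without KO replicate 1 (0.26), with adjusted p from 0.0116 to 0.141. STAT5B and its neighbour STAT5A are near copies in part of the coding sequence. Of the 50-base words of STAT5B, 10.0% are shared, all with STAT5A, and the longest identical run is 429 nt, positions 733 to 1161 of the transcript STAT5B-201. The first 50 nt of that run, the length of one read, are shown because reads from them fit both genes, and no base is in capitals since all are identical.
STAT5B and STAT5A: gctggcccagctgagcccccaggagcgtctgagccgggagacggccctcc
STAT5A itself was at 12.2 and 11.8 CPM in KO and 9.62 and 11.2 CPM in WT, a log2 fold change of 0.21 that was not called.

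SOCS3 (ENSG00000184557, chromosome 17, 78356778 to 78360077, minus strand), the feedback inhibitor of gp130, had the largest difference of the 9. It was at 59.3 and 55.5 CPM in KO and at 36.1 and 34.4 CPM in WT. All KO values were well above the WT values, a 1.63-fold higher level with a log2 fold change of 0.70 (SE 0.093, edgeR quasi-likelihood, Benjamini-Hochberg adjusted p = 1.07e-07). The call held in all 15 alternatives, from 0.49 with the GC and length correction to 0.75. The plot of log2 fold changes sets the members side by side, with the values from the GC and length correction and from library totals only.

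**Figure D3:**
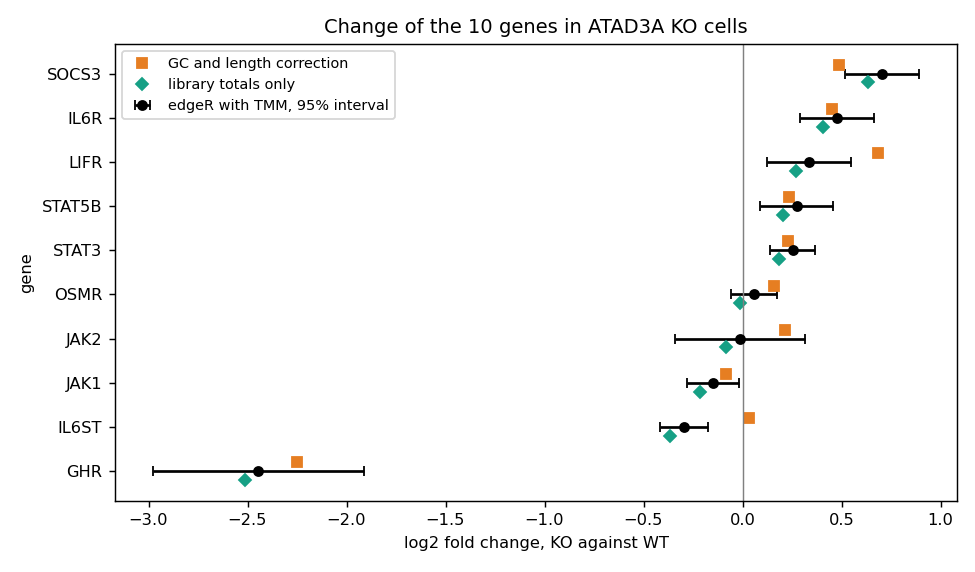
Log2 fold change of KO against WT for the 10 genes. Black points are the edgeR estimates with 95% intervals from 4 libraries, orange squares the values with a GC and length correction and green diamonds those with scaling by library totals only. GHR, chosen for its low level in KO, is at -2.44, and its interval is a description and not a test. The others lie between -0.29 and 0.70, and IL6ST moves to 0.03 with the GC and length correction.

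The wider pathway was read from 9 lists that hold 99 other genes, of which 87 were listed and 76 had enough counts for a test. Of the 76, 21 were called higher, 23 lower and 32 were not called. This near balance depended on the scaling, since the GC and length correction gave 14 higher and 27 lower and library totals only gave 18 higher and 27 lower. The share called was 57.9%, beside 39.5% of all genes, and the median log2 fold change was -0.04. The counts per list below stand beside 20.4% of all genes tested called higher and 19.1% called lower. The plot of the pathway lists shows that the lists differ in direction.

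**Figure D4:**
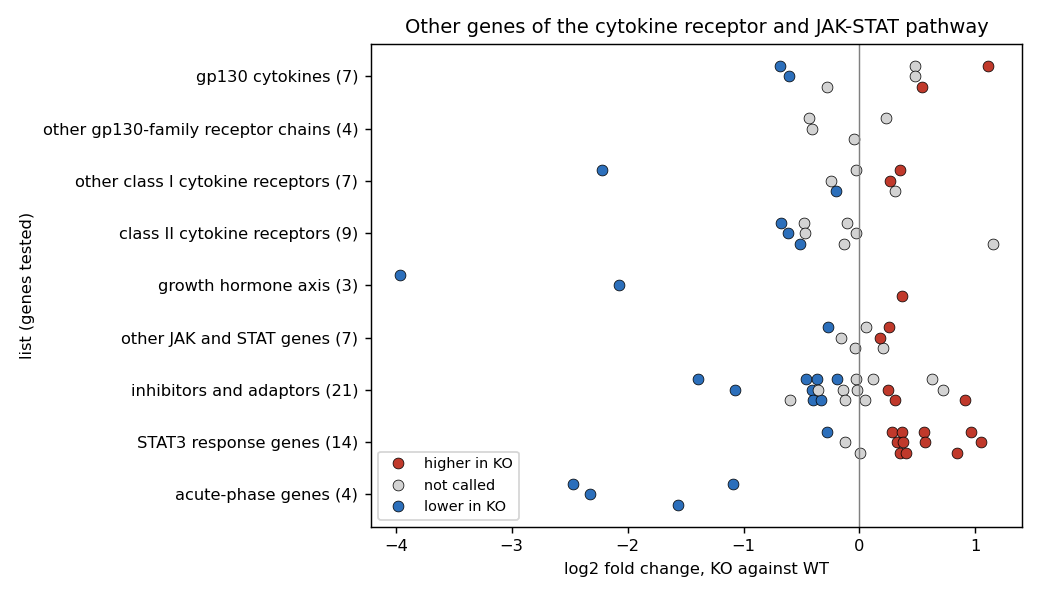
Log2 fold change of KO against WT for the 76 tested genes of the 9 pathway lists, with the number tested in brackets. Each point is a gene, red if called higher in KO, blue if called lower and grey if not called. All 4 acute-phase genes lie to the left and 11 of the 14 STAT3 response genes are called on the right, while the leftmost point, IGFALS, rests on 0 and 2 counts in KO.

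Among 7 tested ligands of gp130, 2 rose, 2 fell and 3 were not called. IL6, the ligand of IL6R, rose from 3.94 and 4.31 CPM in WT to 9.22 and 8.60 CPM in KO (log2 fold change 1.11, SE 0.22), with counts of 170 and 141 against 61 and 60. CLCF1, which shares its receptor with ciliary neurotrophic factor, was called higher at 0.54, but lost the call in 7 of 15 alternatives, among them without WT replicate 2 (0.40) and without KO replicate 2 (0.42). LIF, the ligand of LIFR, fell from 60.5 and 69.8 CPM to 41.0 and 44.4 CPM (log2 fold change -0.61). EBI3, a subunit of interleukin-27, fell with a log2 fold change of -0.68, which was no longer called without WT replicate 1 (-0.55) or without KO replicate 2 (-0.53). OSM and IL27 were not listed. IL11 gave -0.28 and was not called.

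Of the other receptor chains of the gp130 family, IL11RA, IL27RA and IL31RA were tested and not called, with log2 fold changes from -0.43 to 0.23. Of 7 tested receptors of the wider class I family, to which GHR belongs, 2 rose, 2 fell and 3 were not called. CSF2RA, the binding chain for GM-CSF, fell nearly as far as GHR, from 10.6 and 8.70 CPM in WT to 2.33 and 1.77 CPM in KO (log2 fold change -2.22, SE 0.26). IL7R (0.35) and IL4R (0.26) rose and IL13RA1 (-0.20) fell. IL4R lost its call without WT replicate 2 (0.21) and with the GC and length correction (0.11), and IL13RA1 without either WT replicate (-0.19 and -0.21) or KO replicate 1 (-0.12) and with the GC and length correction (-0.07). PRLR, the prolactin receptor and a close relative of GHR, had 0 and 1 counts in KO and 2 and 4 in WT, too few for a test.

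Of 9 class II receptors, the interferon and interleukin-10 family, 3 fell and 6 were not called. IFNGR1, which binds interferon-γ, fell from 69.9 and 80.7 CPM to 47.7 and 50.7 CPM (log2 fold change -0.61). IL20RB (-0.67) and IL10RB (-0.51) also fell, but neither was called without WT replicate 1 (-0.66 and -0.36), which left 1 of the 3 calls.

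In the growth hormone axis, 3 of 7 genes could be tested, and all 3 were called, beside 39.5% of all genes tested. A list of 3 genes is too short for a statement about the axis. IGFBP3, the main carrier of insulin-like growth factors in blood, fell from 119 and 140 CPM in WT to 30.8 and 30.6 CPM in KO (log2 fold change -2.07, SE 0.085). IGFALS, which binds that carrier complex, had 0 and 2 counts in KO and 20 and 10 in WT. IGF1R, the receptor for insulin-like growth factors, rose from 115 and 111 CPM to 143 and 148 CPM (0.37). GH1, PRL and IGF1 were not listed.

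Among the other JAK and STAT genes, STAT6, which serves interleukin-4, rose from 168 and 169 CPM in WT to 199 and 204 CPM in KO (log2 fold change 0.26). TYK2 was called at 0.18, lost the call in 8 of 15 alternatives, among them without WT replicate 1 (0.20), WT replicate 2 (0.17) and KO replicate 2 (0.14), and turned to -0.01 with the GC and length correction. JAK3, STAT2, STAT4 and STAT5A were not called.

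The 21 inhibitors and adaptors gave 3 higher, 8 lower and 10 not called. PIAS2 (-1.40), SOCS6 (-1.07) and PTPN2 (-0.46), an inhibitor of STATs, a relative of SOCS3 and a phosphatase of JAKs and STATs, fell. All 3 lie on chromosome 18, where 139 of 195 tested genes were lower (71.3%) with a median log2 fold change of -0.76. The part of that shift in these values was not tested. The other genes of the list called lower lie on other chromosomes, with log2 fold changes from -0.41 to -0.19. SOCS2, an inhibitor of growth hormone signalling, rose from 16.6 and 13.7 CPM to 28.6 and 28.5 CPM (log2 fold change 0.91, SE 0.13). CISH, the STAT5 target whose upstream stretch is printed above, had 27 and 20 counts in KO and 14 and 10 in WT. Those counts did not overlap, but they were too low to be called (log2 fold change 0.72, 95% interval -0.42 to 1.86).

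Of 14 genes known to respond to STAT3, 11 were called higher, 1 lower and 2 were not called, with a median log2 fold change of 0.37. Over all genes tested 20.4% were called higher and 19.1% lower, and 51.4% of genes over 10 CPM were called in either direction. JUNB, a subunit of AP-1, rose from 105 and 114 CPM to 218 and 209 CPM (0.96). MYC, a driver of cell growth, rose from 156 and 159 CPM to 283 and 282 CPM (0.84), and BCL2L1, which holds back apoptosis, rose by 0.56. FOS, at 1.29 and 1.51 CPM in WT and 3.53 and 2.26 CPM in KO, was called at 1.05 but lost the call in 8 of 15 alternatives, among them without WT replicate 1 (0.95), WT replicate 2 (1.16) and KO replicate 1 (0.69). BIRC5, named after its value was seen as the single gene of the list called lower, stood at -0.28. FOS, JUNB and MYC respond to many other signals as well. With the GC and length correction 7 of the 14 were called higher.

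The acute-phase genes, also known as targets of STAT3, went the other way. Of 14 genes 4 could be tested, and all 4 were called lower, beside 19.1% of all genes tested. SAA1 fell from 403 and 445 CPM to 157 and 129 CPM (-1.57), SAA2 from 54.4 and 48.7 CPM to 8.35 and 10.3 CPM (-2.47), and SAA4 from 2.84 and 2.66 CPM to 0.651 and 0.427 CPM (-2.33). LCN2, an iron-binding protein of epithelial defence, fell from 19.1 and 19.1 CPM to 9.22 and 8.72 CPM (-1.09). SAA1 and SAA2 are near copies of each other, so the division of reads between them is uncertain. How many reads fit more than 1 of the SAA genes was not examined.

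GHR, LIFR, OSMR and IL6ST all lie on chromosome 5, and their neighbours were examined within 5 Mb, a distance set with the results known. Around GHR, 30 other genes were tested, with 5 higher and 8 lower, and their log2 fold changes ran from -0.84 to 0.90 with a median of 0.04. All lay above the -2.44 of GHR, but GHR was chosen for its low level in KO, so this is a description only. Over the windows of all 4 genes, 84 neighbours were tested, 13 were higher and 24 lower (44.0%), and the median was -0.12. On the whole of chromosome 5, 40% of 690 genes were called and the median was -0.04. The neighbours called with the largest differences were ESM1 (2.78), ADAMTS12 (-1.69), CTD-2314G24.2 (1.47) and ITGA2 (0.98). ESM1, which encodes a secreted proteoglycan, and ITGA2, a collagen receptor chain, lie on the same side of IL6ST and both were higher in KO. Around IL6ST, 32 other genes were tested, with 7 higher and 8 lower and a median of -0.015. CTD-2314G24.2 had 23 and 30 counts in KO against 6 and 10 in WT and lost its call in 8 of 14 alternatives, among them without WT replicate 1 (1.09), WT replicate 2 (1.96) and KO replicate 2 (1.18).

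**Figure D5:**
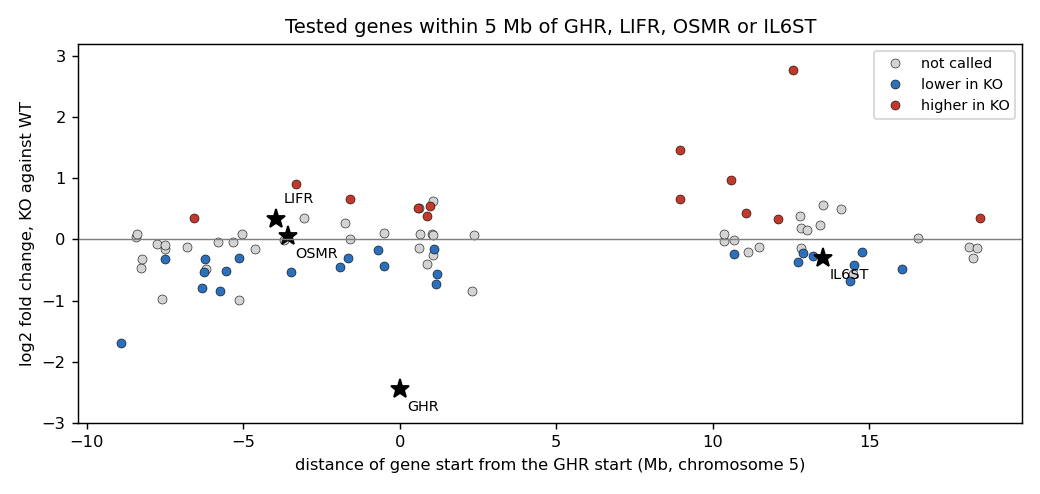
Log2 fold change of KO against WT for the 84 tested genes within 5 Mb of GHR, LIFR, OSMR or IL6ST, against distance from the GHR start in Mb. Stars are the 4 genes themselves, red points are called higher, blue lower and grey not called. GHR, chosen for its low level in KO, is at -2.44, and the 30 tested genes within 5 Mb of it range from -0.84 to 0.90.

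The genes whose 4 libraries followed GHR most closely were found from the root mean square difference of log2 CPM, each gene first centred on its own mean. The nearest 5 outside the lists differed by 0.120 to 0.194. ANXA6, a membrane-binding annexin, had 1.84 and 3.17 CPM in KO and 11.1 and 10.9 CPM in WT. PPFIA4, a liprin, had 1.52 and 2.32 CPM against 8.91 and 10.9 CPM. The others were the gene with the identifier ENSG00000253522, with 0.705 and 1.52 CPM against 5.75 and 5.82 CPM, and the transcripts CTD-2227C6.3 and RP11-213H15.3. Each was lower in KO, with KO replicate 2 above KO replicate 1 as in GHR, a likeness that the way of finding them favours. Of these 5, 4 lie on chromosome 5 as GHR does (PPFIA4 is on chromosome 1), starting at 82940458 (CTD-2227C6.3), 91054834 (RP11-213H15.3), 151100712 (ANXA6) and 160438594 (ENSG00000253522) on GRCh38, all outside the 5 Mb windows. Chromosome 5 held 690 tested genes besides the members, out of 15104 tested across the genome. Whether 4 of 5 differs from that share was not tested. With 4 libraries in 2 groups, this measure mainly picks genes whose groups differ by about as much as those of GHR.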

How the data were processed

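RNA from 2 KO and 2 WT cultures of HN12 cells was sequenced as 50-nt reads. The authors deposited unnormalized read counts per gene, and per the labels their processing notes name STAR 2.5, HTSeq and hg19. The authors also deposited RPKM values, which equal the counts divided by gene length and library total. Annotation and strand setting are not given in the sources used here, so overlapping genes cannot be separated. The labels and the methods name slightly different growth media.

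Counts were tested with edgeR 4.0.16 in R 4.3.3 (filterByExpr, TMM, glmQLFit and glmQLFTest, no covariate), with Benjamini-Hochberg adjustment over 15104 genes and calls at an adjusted p under 0.05. CPM use TMM-scaled totals. Gene positions and GC content were looked up by Ensembl identifier in GENCODE release 29, which uses GRCh38 and not hg19, and were found for 14684 (97.2%) of the tested genes. Replicate pairs differed by more than counting noise (chi-square per degree of freedom 4.20 in KO and 3.36 in WT). The alternatives were a replicate block, DESeq2 1.42.0, size factors from DESeq2, the exact test of edgeR, library totals only, no filter, a minimum of 10 counts per library, limma 3.58.1 on log2(RPKM + 1) and log2(RPKM + 0.1), the fold limits of the study's methods (1.25 and 0.75), a GC and length correction and leaving out each library. The test was tried on simulated counts. Members, lists and alternatives were chosen with earlier results of these data known. Named genes are the members, up to 4 called genes per list with the largest log2 fold changes, the 5 genes nearest to GHR and up to 4 called neighbours on chromosome 5. Some genes of the lists are not reported here by name.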

Additional observations from a re-analysis of the deposited data

How the results depend on the processing

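With 2 libraries per group, depth limits genes with few counts, such as CISH, FOS and IGFALS, more than the members. A left-out library leaves 1 in its group, which is then assumed to vary like the other group. The fold limits of the study's methods, applied with unadjusted p, left 2565 genes called higher, 1847 called lower (58.1% of calls higher, against 51.5% at adjusted p alone) and 3 members other than GHR called (IL6R, LIFR and SOCS3). Leaving out each library in turn gave 2403 to 2915 genes higher, 2013 to 2751 lower, 4 to 6 members and 36 to 42 pathway genes called, and ATAD3A between -1.89 and -1.55. DESeq2 called 2385 genes higher and 2202 lower. The log2 fold change of OSMR turned to -0.011 with library totals, to -0.012 on both log2(RPKM + 1) and log2(RPKM + 0.1) and to -0.0093 without KO replicate 2 (leave-one-out range -0.0093 to 0.12). The GC and length correction turned IL6ST to 0.033, JAK2 to 0.22 and TYK2 to -0.014. JAK2 also turned without WT replicate 2 (0.11) and without KO replicate 1 (0.05), in a leave-one-out range of -0.12 to 0.11. The cause was not tested. With the replicate number as a block, 3010 genes were higher and 2810 lower, with 6 members and 44 pathway genes called, and among the named genes it ended only the call of CTD-2314G24.2 (1.49). Same-numbered libraries did not deviate together (correlation -0.0571), and the labels do not say whether they were prepared together. GHR was lower in all 15 alternatives, from -2.84 to -1.25. It was chosen for its low level in these same KO libraries, so that range is a description only.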
